A study of Mus musculus with 8 samples.

Results

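The mitochondrial genome transcripts are the genes of mouse mitochondrial DNA, whose symbols all start with mt-. They were taken by that symbol and matched by Ensembl identifier, which gave 37 of the 47643 genes in the deposited counts: 13 protein-coding genes, 2 rRNA genes and 22 tRNA genes. RNA was sequenced from whole kidneys of 4 conditional knockout mice (cKO), with the genotype Six2-Cre;Cox10-fl/fl, and 4 wild-type mice (WT). Replicates 1, 3 and 4 of each group were 3 months old and replicate 2 of each group was 2.5 months old. The labels do not say whether the wild-type mice carried the Cre transgene or a floxed allele. Cox10 makes heme A for cytochrome c oxidase, the complex IV of the respiratory chain, and the Six2 promoter is active in the progenitors of the nephron epithelium, so the vessels, the stroma and the collecting duct of a cKO kidney come from other lineages and keep the gene.

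Mitochondrial DNA is a small circle that is transcribed from both strands as long precursors. The precursors are cut mostly at the tRNAs that lie between the other genes, and most of the released mRNAs and the rRNAs receive a short poly(A) tail. Transcription along the heavy strand gives the rRNAs and 12 of the 13 mRNAs, while transcription along the light strand gives mt-Nd6. The mRNAs encode core subunits of complexes I, III and IV and of ATP synthase, and kidney tubules, above all the proximal tubule, hold many mitochondria. Nuclear DNA also carries stretches copied from mitochondrial DNA in the past, and reads that match both places can be given to either.

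The libraries held 9454830 to 15838026 counts each. Replicate labels say nothing on litters, so p-values measure the spread between these kidneys. Sex was not balanced: Y-linked genes had 0 counts in cKO 1, cKO 2, cKO 4 and WT 1, but 848 counts in cKO 3 and 829, 1487 and 1707 counts in WT 2, WT 3 and WT 4. The numbers in the file headers of cKO 4 and WT 4 lie apart from those of the other libraries, a grouping called number run below. These numbers alone do not show whether the libraries were prepared or sequenced apart. Cox10 itself had 18.4 ± 5.12 CPM in cKO kidneys and 21.0 ± 2.47 CPM in WT kidneys (counts per 1000000 on scaled library sizes, SD, n = 4 each), with an adjusted p of 0.619 in edgeR's quasi-likelihood test. The labels do not give the floxed part of Cox10, so this whole-gene total cannot check them.

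Several mitochondrial mRNAs have a nearly identical stretch in a block of chromosome 1, annotated as pseudogenes on the minus strand between bases 24611535 and 24616197 (mm10). The annotated copies of mt-Co2 (Gm28661), mt-Atp6 (Gm10925), mt-Co3 (Gm28437) and mt-Nd4l (Gm10222) matched their genes at 100% of 681, 678, 783 and 294 aligned bases. Gm28439 matched mt-Nd4 at 100% of 876 aligned bases, 63.6% of the gene, but held at most 0.0889% of the pair's counts, in WT 4. Gm29216 matched 483 bases of mt-Co1 with 1 difference, A1066T, and Gm28438 matched 345 bases of mt-Nd3 with 1 difference, T3C. Positions count from 1 at the 5′ end of the mitochondrial gene, and the mitochondrial base comes first. The following windows hold the only base, in capitals, by which a read can be told to come from the gene or from the aligned part of its copy.
mt-Co1, chrM:6390-6408, plus strand: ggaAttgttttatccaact
Gm29216, chr1:24616170-24616188, minus strand: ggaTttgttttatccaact
mt-Nd3, chrM:9459-9476, plus strand: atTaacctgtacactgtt
Gm28438, chr1:24613102-24613119, minus strand: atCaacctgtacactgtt

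In 2 places a pair of reading frames shares more than 1 base on 1 strand, so that a read there belongs to both genes. mt-Atp6 and mt-Co3 share the single base chrM:8607 as well. The 2 longer stretches are shown with the start codon of the downstream gene and the stop codon of the upstream gene in capitals.
mt-Atp8 and mt-Atp6, chrM:7927-7969, plus strand: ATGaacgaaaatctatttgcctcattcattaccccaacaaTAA
mt-Nd4l and mt-Nd4, chrM:10167-10173, plus strand: ATGcTAA

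The 3′ ends of 5 genes show where strand and poly(A) tail matter for counting, with the stop codon, or the part of it that the gene encodes, in capitals. mt-Co3, mt-Nd4 and mt-Cytb end in a single T, and the tail adds the rest of the stop codon. mt-Nd5 and mt-Nd6 run towards each other and overlap at these ends on opposite strands. All sequences are those of the GENCODE transcripts for mm10.
mt-Co3, chrM:9371-9390, plus strand: catttattgatgaggatctT
mt-Nd4, chrM:11525-11544, plus strand: aattacaggcctgacaataT
mt-Cytb, chrM:15269-15288, plus strand: aatactaaaattatatccaT
mt-Nd5, chrM:13546-13565, plus strand: actcaattaatctcgagTAA
mt-Nd6, chrM:13552-13571, minus strand: tcgagattactcgagatTAA

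The comparison of cKO with WT asks how the output of the mitochondrial genome differs in kidneys in which Cox10 was targeted in the nephron lineage. Mitochondrial mRNAs were lower in cKO kidneys: 7 of the 13 fell, 0 rose, and the median log2 fold change (cKO over WT) of the 13 was -1.23. Among all 13829 genes tested, 7.14% fell and 9.57% rose, and the median log2 fold change was -0.01. The 7 that fell were mt-Nd2, mt-Nd4l, mt-Nd4, mt-Nd5 and mt-Nd6 of complex I, mt-Cytb of complex III and mt-Atp8 of ATP synthase. Neither rRNA passed the test, and all 22 tRNAs were at 0 in all 8 libraries. Of the 37 genes, 15 passed the filter on low counts. For 5 of the 7, mt-Nd2, mt-Atp8, mt-Nd4, mt-Nd5 and mt-Cytb, every cKO library lay below every WT library. Over all tested genes 9.56% showed such a gap. Of 15 markers of the proximal tubule 8 fell, and in whole kidneys fewer tubule cells and fewer mitochondrial transcripts per cell cannot be told apart.

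These calls rest on few libraries. The count of 7 became 2 without WT 4, 2 without cKO 4 and 4 without WT 3, and it was 6 to 8 without any other single library. Over all genes, 987 fell in the main fit, 447 without WT 4, 340 without cKO 4 and 516 without WT 3. mt-Nd4l and mt-Nd5 passed without each library in turn, with highest adjusted p-values of 0.049998 and 0.0409. Without both WT 4 and cKO 4, 0 passed by edgeR, with 7 at an unadjusted p under 0.05 and a median of -1.09. In that fit 151 of all 13865 tested genes fell. With a term for Y-linked reads 3 passed, mt-Atp8, mt-Nd4l and mt-Nd5, where 1.63% of all genes fell, and the median was -1.20. DESeq2 called 9 and limma-voom called 6, where 1448 and 925 of all 13829 genes fell, against 987 in the main fit.

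**Figure D1:**
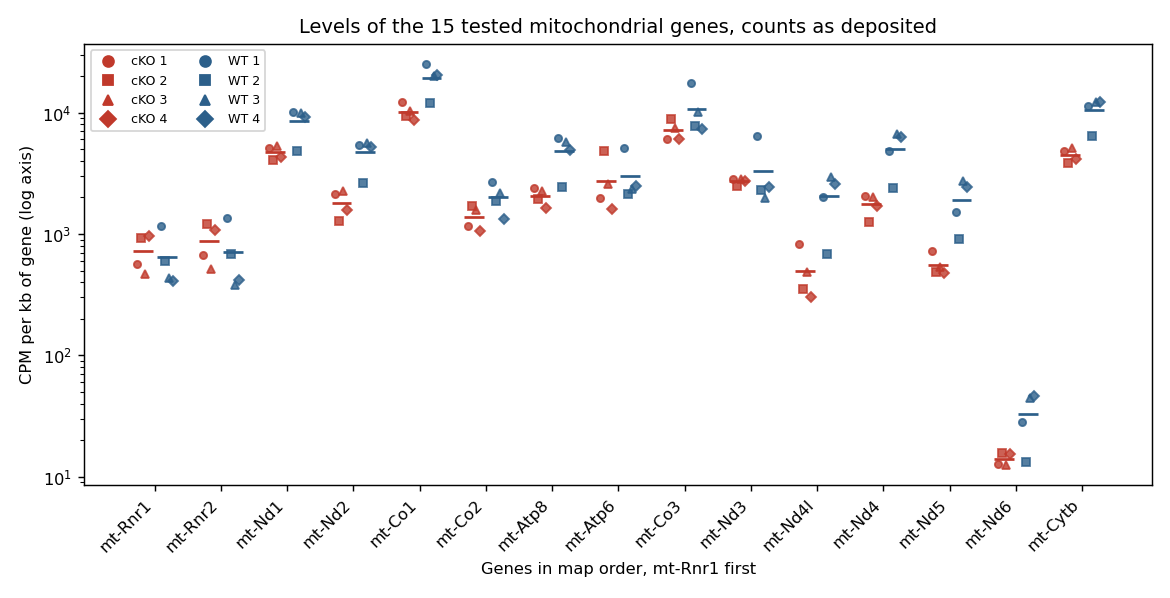
Level of each of the 15 tested mitochondrial genes in each library, in CPM per kb of gene on a log axis, in map order, with cKO libraries in red left of WT libraries in blue and a line at each group's mean (n = 4). The cKO points lie below all WT points for mt-Nd2, mt-Atp8, mt-Nd4, mt-Nd5 and mt-Cytb, and the groups overlap for both rRNAs.

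As a share of all counts, the 13 mRNAs took 4.87%, 3.83%, 4.61% and 3.81% in cKO 1 to cKO 4. They took 8.94%, 4.37%, 8.95% and 8.16% in WT 1 to WT 4. WT 2 lay within the cKO range, and the other WT libraries lay above it. With all 37 genes the means were 4.50% ± 0.477 in cKO kidneys and 7.76% ± 2.21 in WT kidneys (SD, n = 4 each). With the counts of the nuclear copies added, the groups still overlapped through WT 2. The shares of the 37 genes were then 8.33%, 7.30%, 8.38% and 7.14% in cKO 1 to cKO 4, against 15.7%, 7.59%, 12.7% and 12.2% in WT 1 to WT 4.

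Complex I takes electrons from NADH, and its membrane arm holds the 7 subunits that mitochondrial DNA encodes. 5 of these 7 fell. mt-Nd5 (chrM:11742-13565), a proton-pumping subunit at the far end of the arm, had 1326, 893, 967 and 874 CPM in cKO 1 to cKO 4, against 2781, 1644, 4983 and 4424 CPM in WT 1 to WT 4. Every cKO library was below every WT library, and WT 2 was the lowest of WT. Its log2 fold change was -1.77 (SE 0.37, adjusted p = 0.00917, edgeR).

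mt-Nd4l (chrM:9877-10173), a small subunit near the joint of the arm, had 247, 105, 145 and 89.8 CPM in cKO 1 to cKO 4, against 602, 204, 871 and 764 CPM in WT 1 to WT 4. The cKO 1 library lay above WT 2, so the groups overlapped. The log2 fold change was -2.06 (SE 0.46, adjusted p = 0.0121, edgeR), the most negative of the 15 tested genes. mt-Nd4 (chrM:10167-11544), a proton-pumping subunit whose reading frame starts inside that of mt-Nd4l, had 2818, 1724, 2777 and 2357 CPM in cKO 1 to cKO 4 and 6708, 3309, 9129 and 8643 CPM in WT 1 to WT 4. Its groups did not overlap, and its log2 fold change was -1.52 (SE 0.36, adjusted p = 0.0164, edgeR).

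mt-Nd2 (chrM:3914-4951), another proton-pumping subunit, had 2198, 1315, 2330 and 1641 CPM in cKO 1 to cKO 4, against 5662, 2753, 5847 and 5411 CPM in WT 1 to WT 4. WT 2 stood far below the other WT libraries and still above all cKO libraries. mt-Nd2 had a log2 fold change of -1.39 (SE 0.34, adjusted p = 0.0171, edgeR). The call was lost without WT 4 or without cKO 4, as it was for mt-Nd4, with adjusted p-values up to 0.0637 for mt-Nd2 and up to 0.0581 for mt-Nd4.

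The remaining complex I genes of the heavy strand did not pass. mt-Nd1 (chrM:2751-3707), whose product lies where the arm meets the quinone site, had 4902, 3865, 5089 and 4131 CPM in cKO kidneys against 9700, 4636, 9497 and 8791 CPM in WT kidneys. Only WT 2 reached into the cKO range. With all libraries its log2 fold change was -0.86 (SE 0.32, adjusted p = 0.0849, edgeR), and without WT 2 it was -1.06 (adjusted p = 0.0429). mt-Nd3 (chrM:9459-9806), a small subunit at the same joint, had 978, 870, 996 and 945 CPM in cKO kidneys against 2251, 795, 690 and 854 CPM in WT kidneys. WT 1 stood alone and the other WT libraries lay below all cKO libraries, so the log2 fold change of -0.28 (adjusted p = 0.637) became 0.27 without WT 1.

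Complex III passes electrons to cytochrome c, and mt-Cytb (chrM:14145-15288) encodes the subunit that holds its quinone sites. It had 5483, 4413, 5823 and 4762 CPM in cKO 1 to cKO 4 and 12870, 7379, 13908 and 13875 CPM in WT 1 to WT 4. The groups did not overlap, and 3 of the 4 WT libraries lay close together. On the log2 scale mt-Cytb fell by 1.23 (SE 0.31, adjusted p = 0.021, edgeR). It did not pass without WT 3, WT 4 or cKO 4, with adjusted p-values up to 0.0730.

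Complex IV is the enzyme for which Cox10 makes heme A, and its catalytic core is encoded by mt-Co1, mt-Co2 and mt-Co3. Of these 3 genes 0 passed in edgeR, 1 of them with an unadjusted p under 0.05. mt-Co1 (chrM:5328-6872), the subunit that binds heme A, had 18732, 14378, 15956 and 13476 CPM in cKO 1 to cKO 4, against 38793, 18692, 30742 and 31406 CPM in WT 1 to WT 4. The cKO 1 library lay just above WT 2, and all others were apart. For mt-Co1 the log2 fold change was -0.94 (SE 0.33, adjusted p = 0.071, edgeR), and its 95% interval of -1.65 to -0.22 lay below 0. In DESeq2 both mt-Co1 and mt-Nd1 passed, with adjusted p-values of 0.00325 and 0.0105.

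mt-Co2 (chrM:7013-7696), which receives the electrons from cytochrome c, had 721 to 1171 CPM in cKO kidneys and 902 to 1818 CPM in WT kidneys. mt-Co3 (chrM:8607-9390), a core subunit without a redox centre, had 4737 to 7000 CPM in cKO kidneys and 5767 to 13737 CPM in WT kidneys. In both genes the groups overlapped. Their log2 fold changes were -0.54 (95% interval -1.19 to 0.11, adjusted p = 0.223) for mt-Co2 and -0.59 (95% interval -1.35 to 0.18, adjusted p = 0.262) for mt-Co3 in edgeR. For both genes these counts are a minority of the reads that match them.

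ATP synthase contains mt-Atp6, part of its proton channel, and mt-Atp8, a small subunit beside it, made from 1 shared transcript. mt-Atp8 (chrM:7766-7969) had 492, 396, 460 and 333 CPM in cKO 1 to cKO 4, against 1258, 502, 1175 and 1009 CPM in WT 1 to WT 4. Every cKO library lay below every WT library, though cKO 1 and WT 2 were close. mt-Atp8 had a log2 fold change of -1.23 (SE 0.31, adjusted p = 0.0219, edgeR), and it did not pass without WT 3, WT 4 or cKO 4, with adjusted p-values up to 0.0793. mt-Atp6 (chrM:7927-8607) had 1349, 3260, 1771 and 1089 CPM in cKO 1 to cKO 4 and 3481, 1454, 1605 and 1684 CPM in WT 1 to WT 4. Neither group was uniformly the higher one. Its log2 fold change was -0.14 (SE 0.41, adjusted p = 0.837, edgeR), so 2 reading frames of 1 transcript had unlike values as deposited.

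The chromosome 1 copies took up most reads of some of these genes. Of the counts of mt-Co2 and Gm28661 together, 90.1%, 85.8%, 89.1% and 91.9% were at the nuclear copy in cKO 1 to cKO 4, and 89.3%, 85.4%, 89.8% and 93.7% in WT 1 to WT 4. For mt-Atp6 and Gm10925 the copy held 80.8%, 64.3%, 77.6% and 83.5% in cKO kidneys and 77.7%, 79.9%, 85.8% and 84.6% in WT kidneys. cKO 2 gave less to this copy than any other library. The copy of mt-Co3 held 70.4% to 75.7% in cKO kidneys and 59.4% to 75.0% in WT kidneys, and that of mt-Nd3 held 55.7% to 65.8% in cKO kidneys and 58.3% to 74.9% in WT kidneys. A transcript of the nucleus and one of the mitochondrion with the same bases cannot be told apart in these counts.

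For mt-Nd4l the split was uneven between libraries. Its copy Gm10222 held 13.3%, 0.0631%, 20.6% and 29.5% of the pair in cKO 1 to cKO 4, against 16.9%, 31.97%, 20.5% and 22.4% in WT 1 to WT 4. In cKO 2 nearly every read of the pair was at the mitochondrial gene. The copy of the mt-Co1 end, Gm29216, had 154, 1772, 1025 and 1822 CPM in cKO 1 to cKO 4, against 129, 741, 56.4 and 89.2 CPM in WT 1 to WT 4. cKO 1 was close to WT 1, and the other cKO libraries lay above all WT libraries. Its log2 fold change was 2.23 (SE 0.96, adjusted p = 0.139, edgeR).

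**Figure D2:**
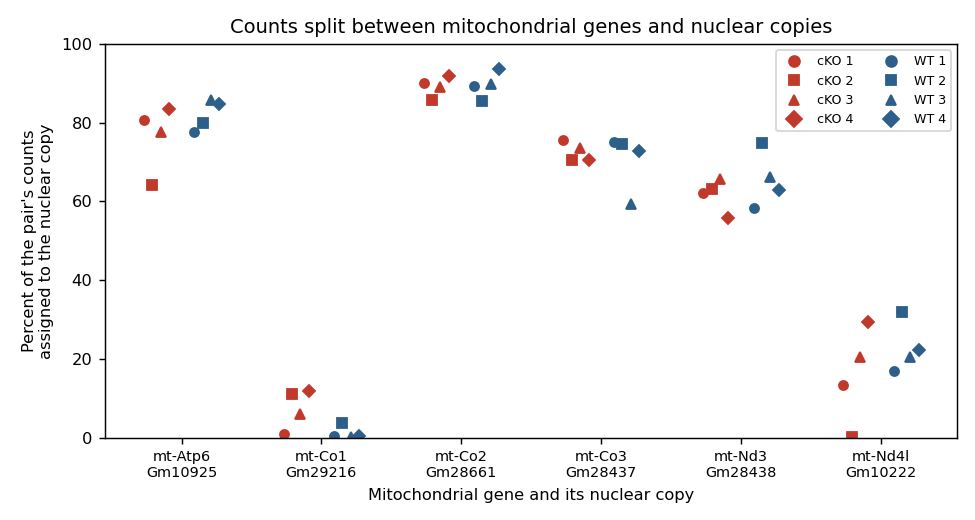
Percent of the summed counts of a mitochondrial gene and its chromosome 1 copy that were assigned to the copy, for the 6 pairs with most counts at the copy, with cKO libraries in red left of WT libraries in blue. The copy held 85.4% to 93.7% for mt-Co2 in all libraries, and for mt-Nd4l it ranged from 0.0631% in cKO 2 to 31.97% in WT 2.

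The alignment found 11 annotated copies in all, of which 9 passed the filter, and 1 of these 9 was called, where 7.14% of all genes fell. Gm13340, a copy of mt-Co1 on chromosome 2 with 97.6% identity, fell with a log2 fold change of -0.9997 (adjusted p = 0.0284, edgeR), at a low level of 5.68 CPM in cKO kidneys and 11.3 CPM in WT kidneys. This call was lost without WT 4, cKO 3 or cKO 4, where 0 copies passed and 2 or 3 had an unadjusted p under 0.05, and without WT 2 the count was 3.

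When the counts of each copy were added to its mitochondrial gene, 7 of the 13 mRNAs fell, where 7.15% of all genes fell and 9.57% rose, and the median was again -1.23. They were again mt-Nd2, mt-Atp8, mt-Nd4l, mt-Nd4, mt-Nd5, mt-Nd6 and mt-Cytb. mt-Atp6 now had a log2 fold change of -0.56 (SE 0.31, adjusted p = 0.238), with 7008, 9124, 7915 and 6607 CPM in cKO 1 to cKO 4 and 15615, 7248, 11290 and 10963 CPM in WT 1 to WT 4. Only WT 2 reached the cKO range. mt-Co2 had -0.64 (adjusted p = 0.164), mt-Co3 -0.56 (adjusted p = 0.343), mt-Nd3 -0.37 (adjusted p = 0.474) and mt-Co1 -0.84 (adjusted p = 0.0888). Though mt-Co1 did not pass, its cKO libraries, with 15298 to 18891 CPM, now all lay below its WT libraries, with 19445 to 38952 CPM. Here cKO 1 and WT 2 were close. mt-Nd4l had -2.15 (SE 0.44, adjusted p = 0.00792, edgeR), and its cKO libraries, with 285, 105, 182 and 127 CPM, then all lay below its WT libraries, with 725, 300, 1096 and 984 CPM. Over all genes 9.59% showed such a gap in this counting.

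Per kb of gene and with the copies added, mt-Co3 had the highest level, 25985 CPM per kb in cKO kidneys and 38216 CPM per kb in WT kidneys. In WT kidneys mt-Co2 (19982), mt-Co1 (19535) and mt-Atp6 (16562) followed in CPM per kb, and these neighbours differ by less than their spread. Next came mt-Cytb with 4475 CPM per kb in cKO kidneys and 10499 CPM per kb in WT kidneys, mt-Nd3 with 7166 in cKO kidneys and 9278 in WT kidneys, and mt-Nd1 with 4698 in cKO kidneys and 8525 in WT kidneys. mt-Nd4, mt-Atp8 and mt-Nd2 had 4739 to 5046 CPM per kb in WT kidneys. The lowest values among the heavy-strand protein-coding genes were those of mt-Nd4l and mt-Nd5. mt-Nd4l had 588 CPM per kb in cKO kidneys and 2613 in WT kidneys, and mt-Nd5 had 556 in cKO kidneys and 1896 in WT kidneys. mt-Nd4l, of 297 bases, shares 1 mRNA with mt-Nd4, so its value is not the level of a separate mRNA. Full annotated lengths were used, without a correction for fragment length, so values of short genes are the least certain.

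The rRNAs build the mitochondrial ribosome. mt-Rnr1 (chrM:70-1024), of the small subunit, had 537, 891, 449 and 915 CPM in cKO 1 to cKO 4, against 1107, 574, 415 and 389 CPM in WT 1 to WT 4. mt-Rnr2 (chrM:1094-2675), of the large subunit, had 1055, 1901, 817 and 1719 CPM in cKO 1 to cKO 4, against 2159, 1079, 607 and 657 CPM in WT 1 to WT 4. Within cKO, replicates 2 and 4 were the high ones for both genes, and within WT replicate 1 was. The log2 fold changes were 0.17 (SE 0.38, adjusted p = 0.788) and 0.29 (SE 0.44, adjusted p = 0.679) in edgeR. At an unadjusted p under 0.05 there were 0 rRNAs, and DESeq2 and limma-voom called 0. The 95% intervals, -0.67 to 1.01 and -0.67 to 1.24, allow a change in either direction. Both signs turned with a term for Y-linked reads, to -0.27 and -0.20. The libraries were made from polyadenylated RNA, so these counts cover only rRNA that such a selection retains.

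The tRNA genes are 59 to 75 bases long, 14 on the plus strand and 8 on the minus strand, and held 0 counts in every library, cKO and WT. A count of 0 in the smallest library allows up to 3 of 9454830 counts. RNAs this short are outside what a poly(A)-selected library is made to measure, so these files say nothing on tRNA levels, and no test was made.

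Because all these genes come from shared precursors, ratios within the mitochondrial counts were also compared. They do not depend on scaling between libraries. Per 100 counts of heavy-strand mRNA, the rRNAs had 3.61, 7.09, 2.93 and 7.49 counts in cKO 1 to cKO 4, against 3.28, 3.39, 1.16 and 1.25 in WT 1 to WT 4. cKO 1, cKO 2 and cKO 4 were above all WT libraries, and cKO 3 lay below WT 1 and WT 2. On the log2 scale the ratio averaged -4.36 ± 0.684 in cKO kidneys and -5.64 ± 0.848 in WT kidneys (SD, n = 4 each). The difference of 1.28 had an exact two-sided permutation p of 0.114 (0.229 after Benjamini-Hochberg adjustment over 2 ratios), where the smallest p that 4 against 4 allows is 0.0286. With copies added the difference was 1.11, with an exact permutation p of 0.114. It was positive without each library in turn, from 0.90 to 1.53 over both countings, and within the libraries with Y-linked reads (0.78) and without them (0.81).

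mt-Nd6 (chrM:13552-14070, minus strand), a complex I subunit, is the only mRNA of the light strand. It had 6.59, 8.16, 6.54 and 8.03 CPM in cKO 1 to cKO 4, against 14.6, 6.89, 22.9 and 24.2 CPM in WT 1 to WT 4. WT 2 lay within the cKO values and the other WT libraries well above them. Its log2 fold change was -1.23 (SE 0.34, adjusted p = 0.0312, edgeR), and the call was lost in 6 of the 8 fits that left out a library, the exceptions being WT 1 and WT 2, with adjusted p-values up to 0.108. The strand setting of the counting is not given, and reads of the heavy-strand precursor across mt-Nd6 would not be told apart from mt-Nd6 if strand was ignored.

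Per 1000000 heavy-strand mRNA counts, mt-Nd6 had 149, 207, 151 and 228 counts in cKO 1 to cKO 4, against 146, 141, 261 and 290 in WT 1 to WT 4. WT 1 and WT 2 lay below all cKO values, while WT 3 and WT 4 were above all of them. The log2 ratio of light-strand to heavy-strand mRNA differed by -0.14 (exact two-sided permutation p = 0.657, also 0.657 after adjustment), and by -0.31 with copies added (exact permutation p = 0.4). It was 0.39 within libraries without Y-linked reads and -0.54 within libraries with them. As deposited, the SD of this log2 ratio was 0.313 in cKO kidneys and 0.545 in WT kidneys, larger than the difference of -0.14. As for the rRNAs, mt-Nd6 counts cover only RNA that poly(A) selection retains, so the ratio does not measure the output of the strands.

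**Figure D3:**
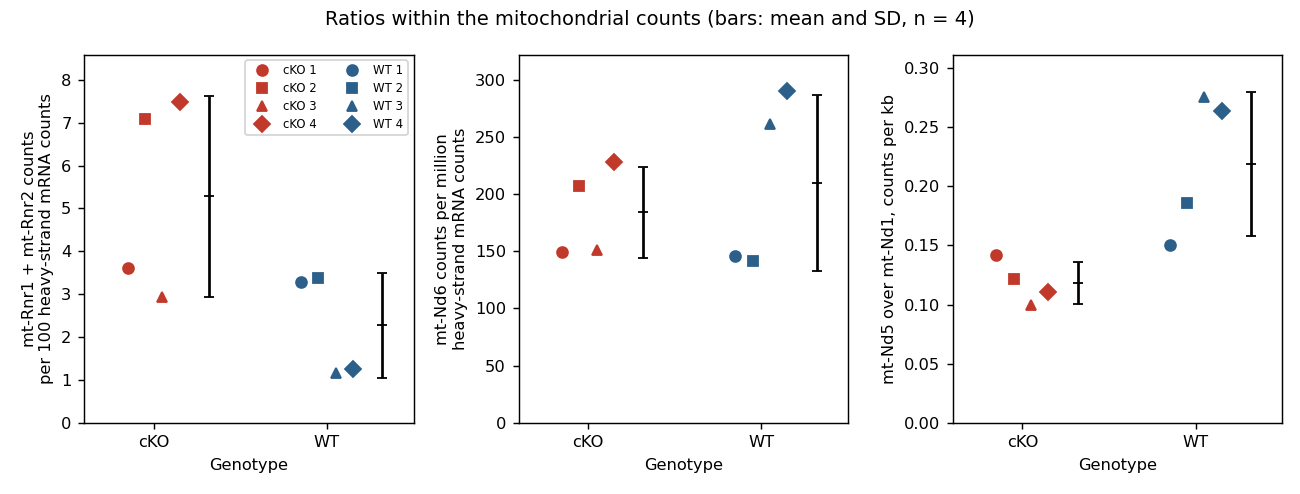
Counts of both rRNAs per 100 heavy-strand mRNA counts, mt-Nd6 counts per 1000000 heavy-strand mRNA counts, and the mt-Nd5 to mt-Nd1 ratio of counts per kb, with 1 point for each library, cKO left of WT, and bars for the mean and SD (n = 4). The mt-Nd5 to mt-Nd1 ratio was 0.0997 to 0.142 in cKO kidneys and 0.150 to 0.275 in WT kidneys, and the groups overlap in the other panels.

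Along the heavy strand, fold changes were unequal. From mt-Nd1, with its midpoint 3.16 kb from the start of mt-Rnr1, to mt-Cytb at 14.6 kb, Pearson's r between distance and log2 fold change was -0.29 and Spearman's rho -0.34 across the 12 heavy-strand mRNAs. These genes share precursors and libraries, so this is a description and carries no test. Without each library in turn r ranged from -0.33 to -0.26 as deposited. With copies added it was -0.32, and without each library in turn it ranged from -0.36 to -0.30. The order was not a gradient: mt-Nd2 near the start had -1.39, the stretch from mt-Co2 to mt-Nd3 had values from -0.64 to -0.37 with copies added apart from mt-Atp8 at -1.23, and mt-Nd4l, mt-Nd4 and mt-Nd5 beyond it had -2.15, -1.52 and -1.77. mt-Cytb, farthest from the start, had -1.23. The genes that end in a single T lay apart as well, with -0.56 for mt-Co3, -1.52 for mt-Nd4 and -1.23 for mt-Cytb.

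**Figure D4:**
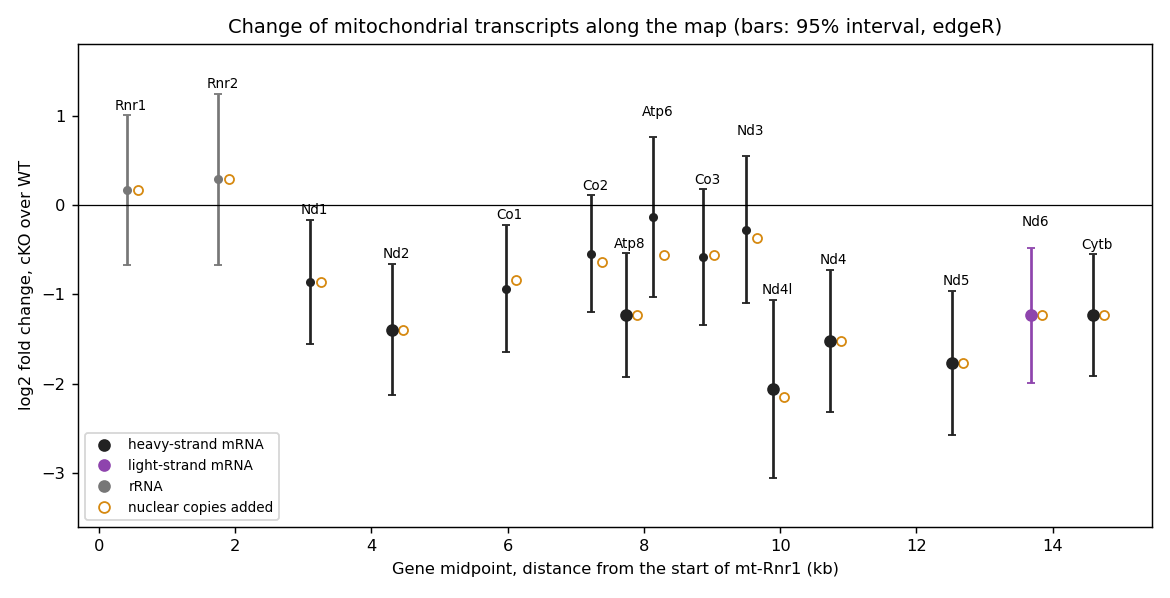
The log2 fold change (cKO over WT) of each tested mitochondrial gene against the distance of its midpoint from the start of mt-Rnr1, with filled points and 95% intervals for counts as deposited, larger points for genes that passed, and open points for counts with nuclear copies added. The most negative values belong to mt-Nd4l, mt-Nd5 and mt-Nd4, and both rRNA intervals include 0.

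Pairs of genes from 1 precursor were compared per kb of full annotated length, without a correction for fragment length. mt-Nd5 over mt-Nd1 was 0.142, 0.121, 0.0997 and 0.111 in cKO 1 to cKO 4, against 0.150, 0.186, 0.275 and 0.264 in WT 1 to WT 4. All cKO libraries lay below all WT libraries, with cKO 1 close to WT 1. mt-Nd4l over mt-Nd4, from genes that overlap and have 1 shared mRNA, was 0.469, 0.282, 0.304 and 0.250 with copies added in cKO kidneys, against 0.501, 0.420, 0.556 and 0.527 in WT kidneys, and only cKO 1 reached the WT range. mt-Atp8 over mt-Atp6 with copies added was 0.234, 0.145, 0.194 and 0.168 in cKO kidneys, against 0.269, 0.231, 0.347 and 0.307 in WT kidneys, where cKO 1 lay just above WT 2. These ratios were chosen after the fold changes were seen and are given without a test.

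Shares within the pool of 13 mRNAs also differed for some genes. mt-Nd2 made up 4.98%, 3.34%, 5.39% and 4.67% of the pool as deposited in cKO 1 to cKO 4, against 5.68%, 5.64%, 6.65% and 6.48% in WT 1 to WT 4. mt-Nd4 made up 6.39%, 4.38%, 6.42% and 6.70% in cKO kidneys, against 6.73%, 6.78%, 10.4% and 10.3% in WT kidneys. For both the shares in cKO kidneys were below all those in WT kidneys, also with copies added. With copies added the share of mt-Atp6 was above in every cKO library, at 9.496%, 12.6%, 10.2% and 10.4% against 9.09%, 8.71%, 9.10% and 8.88% in WT kidneys. When all genes were scaled to the summed heavy-strand mRNA, mt-Nd4l alone of the 13 mRNAs remained called, with a log2 fold change of -1.05 (adjusted p = 0.0434, edgeR) as deposited and -1.35 (adjusted p = 0.00799) with copies added. On that scale 1.38% of all genes fell and 46.8% rose as deposited. With copies added 2.16% fell, and 5114 of 13820 genes rose. For mt-Rnr2 the log2 fold change on it was 1.26 (adjusted p = 0.039) as deposited and 1.13 (adjusted p = 0.041) with copies added. mt-Rnr1 had 1.14 (adjusted p = 0.0456) as deposited and 1.01 (adjusted p = 0.058) with copies added. Rises were common on this scale, and the exact permutation test of the rRNA to mRNA ratio did not pass in either counting (p = 0.114 in both).

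Few of the nuclear genes that transcribe, replicate and process the mitochondrial genome passed the test. Of 66 such genes, all tested, 3 fell and 0 rose, and the median log2 fold change was -0.21. Over all tested genes 7.14% fell and the median was -0.01, so the count of 3 says little about this list. Rrm2b, a ribonucleotide reductase subunit that supplies nucleotides for mitochondrial DNA outside the cell cycle, had 17.9, 19.5, 12.4 and 9.86 CPM in cKO 1 to cKO 4, against 23.7, 41.9, 42.0 and 34.7 CPM in WT 1 to WT 4, with a log2 fold change of -1.26 (adjusted p = 0.0107, edgeR). Polg, the catalytic subunit of the mitochondrial DNA polymerase, had 22.4, 13.6, 22.8 and 21.7 CPM in cKO kidneys against 27.9, 29.7, 35.6 and 36.9 CPM in WT kidneys (-0.69, adjusted p = 0.0488). Grsf1, an RNA-binding protein of mitochondrial RNA granules, had 138, 126, 112 and 94.8 CPM in cKO kidneys against 170, 212, 190 and 184 CPM in WT kidneys (-0.68, adjusted p = 0.0372). In all 3 genes the groups did not overlap, and over the 66 genes 10 lay lower and 1 higher in every cKO library than in every WT library, where 9.56% and 13.1% of all tested genes did.

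By role, 2 of 12 genes of replication and nucleotide supply fell, 1 of 13 of transcript stability and decay, and 0 of 10 of transcription, 0 of 16 of cleavage and tRNA maturation and 0 of 15 of rRNA modification. Over the whole list 13 genes had an unadjusted p under 0.05 in edgeR, all with a negative log2 fold change. The share of all genes at that threshold was not counted. Since 16.7% of all genes were called even after adjustment, the count of 13 says little about this list. DESeq2 called 9 and limma-voom 3, where they called 22.9% and 16.5% of all genes. In the transcription list Mrpl12, a ribosomal protein that also binds the mitochondrial RNA polymerase, had a log2 fold change of -0.15 (adjusted p = 0.778), and Tfam, which packages mitochondrial DNA and starts transcription, had -0.22 (adjusted p = 0.497). Hsd17b10, a subunit of the enzyme that cuts the 5′ ends of tRNAs, had 0.04 (adjusted p = 0.947), and Angel2 had -0.52 (adjusted p = 0.0596). In the rRNA list Dhx30, a helicase of ribosome assembly, had -0.67 (adjusted p = 0.0965), and Fastkd2, an RNA-binding protein of the same process, had -0.50 (adjusted p = 0.183). The count of 3 became 6 without WT 1 and 1 without WT 3, WT 4, cKO 3 or cKO 4, and it was 0 with a term for Y-linked reads, where 3 genes had an unadjusted p under 0.05.

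Marker genes of the kidney's cell types also differed between the groups. Summed over 15 proximal tubule markers, all tested and none at 0 throughout, the level was 8391, 3468, 16533 and 4254 CPM in cKO 1 to cKO 4, against 52631, 86574, 59267 and 67965 CPM in WT 1 to WT 4. Of the 15, 8 fell and 0 rose, beside 7.14% of all tested genes that fell and 9.57% that rose. Kap, an androgen-dependent gene, made up most of the WT sums, with 124 to 8662 CPM in cKO kidneys against 38650 to 69538 CPM in WT kidneys. Without Kap, a choice made after seeing the data, the other 14 summed to 7859, 2714, 7871 and 4130 CPM in cKO 1 to cKO 4, against 9242, 17035, 20617 and 20697 CPM in WT 1 to WT 4. With or without Kap, every cKO sum lay below every WT sum. Within WT, WT 1 had the lowest sums and the highest share of the 13 mRNAs with copies added, at 15.4%. Leaving out Kap does not take sex out of the sums. Kap had 43389 CPM in WT 1, which had no Y-linked reads. Acsm2, kept in the sum, had 1119 CPM in WT 1 against 5295 to 6577 CPM in the other WT libraries. Slc34a1, the phosphate transporter of the proximal tubule, had 2282, 570, 2145 and 1062 CPM in cKO kidneys against 2995, 3656, 4933 and 4976 CPM in WT kidneys. Of 10 macrophage markers 9 rose and 0 fell, with summed levels of 455 to 789 CPM in cKO kidneys and 116 to 232 CPM in WT kidneys. Of 8 fibroblast markers 7 rose and 1 fell, with 529 to 821 CPM in cKO kidneys and 136 to 229 CPM in WT kidneys.

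Other segments and cell types were read against the same shares, 7.14% of all tested genes lower and 9.57% higher. Of 6 markers of the thick ascending limb, another segment rich in mitochondria, 1 rose and 1 fell, with sums of 1547 to 3165 CPM in cKO kidneys and 3512 to 6059 CPM in WT kidneys. Of 4 distal convoluted tubule markers 3 fell and 0 rose, with 403 to 545 CPM in cKO kidneys and 648 to 1332 CPM in WT kidneys. Of 8 collecting duct markers 4 rose and 1 fell, with 1383 to 3164 CPM in cKO kidneys and 631 to 997 CPM in WT kidneys. Endothelial markers had 2 of 8 lower and podocyte markers 0 of 5 changed. 1 of 5 tested T cell markers and 1 of 3 tested muscle markers rose, and single genes in lists this short say little beside those shares. The part of cell make-up in the mitochondrial results was not tested.

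**Figure D5:**
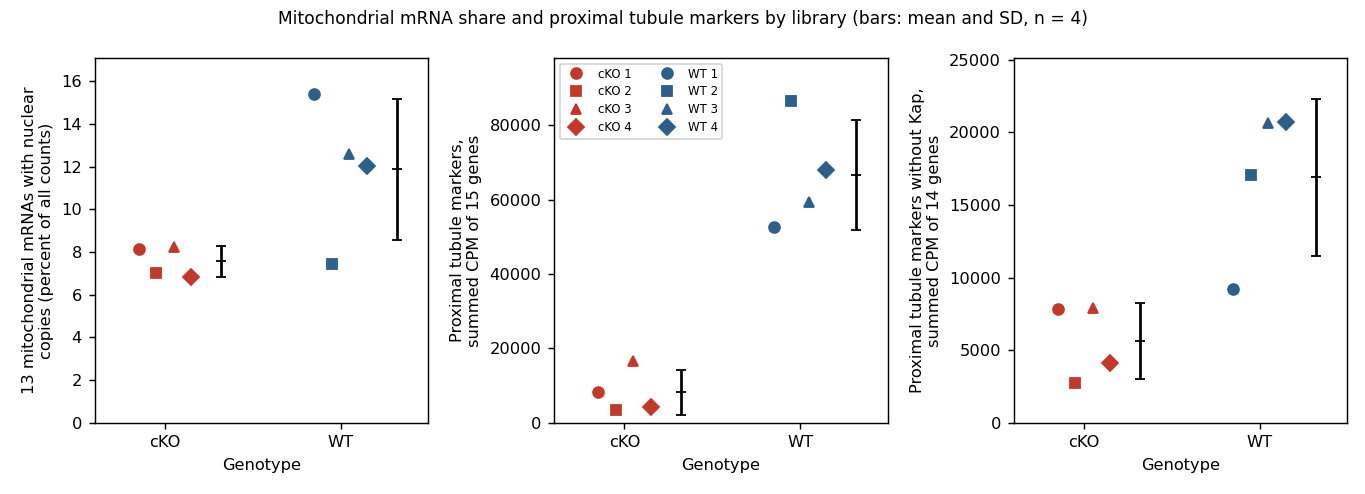
Share of all counts taken by the 13 mitochondrial mRNAs with nuclear copies added, in percent, and the summed CPM of 15 proximal tubule markers and of the 14 other than Kap, with 1 point for each library, cKO left of WT, and bars for the mean and SD (n = 4). Every cKO marker sum lies below every WT sum in both marker panels, while WT 2 has the lowest share of the WT libraries.

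Within libraries of the same sex, only 1 kidney stood on one side: cKO 1, cKO 2 and cKO 4 against WT 1 without Y-linked reads, and cKO 3 against WT 2, WT 3 and WT 4 with them. In a fit that takes the lone kidney to vary like the other groups, the median log2 fold change of the 13 mRNAs was -1.32 without Y-linked reads and -0.96 with them. With a lone kidney on one side of each contrast, only effect sizes are read from them. mt-Nd5 had -1.43 without Y-linked reads and -1.93 with them, and mt-Nd4l had -2.03 and -2.08. mt-Nd3 had the largest gap between the contrasts, with -1.27 without Y-linked reads and 0.35 with them. In the test of the difference 0 of the 15 mitochondrial genes passed (0.0651% of all genes did), and mt-Nd3 alone had an unadjusted p under 0.05, of 0.0188.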

How the data were processed

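Per the labels' protocols, total RNA of frozen kidneys was purified on columns, and a stranded mRNA kit was used for the libraries. The deposited files hold expected counts per Ensembl gene that the authors estimated with RSEM after STAR, on build mm10, per the submitters' processing notes. Tool versions, the annotation release and the strand option of the counting were not given in the sources used here. RSEM divides a read that matches several genes among them, so genes with near-identical copies hold estimates.

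Expected counts were rounded. Genes kept by filterByExpr (13829) were TMM-scaled and tested with edgeR's quasi-likelihood test (robust, two-sided, cKO over WT). P-values were adjusted by Benjamini-Hochberg across the whole table, and 0.05 was the threshold. CPM uses TMM library sizes. Of the identifiers, 47224 matched the GENCODE annotation of mm10. No genome sequence was used, so nuclear copies were found by aligning mitochondrial transcripts to annotated transcripts with BLAST (at least 95% identity over 100 bases) rather than to the genome. Alternatives were other scalings and filters, DESeq2, limma-voom, terms for age, number run and Y-linked reads (at least 10 counts), a replicate block, copies added and leaving out libraries. Added after seeing the data were contrasts within sex, copies added with other choices, and all alternatives for the copies. Members and gene lists were chosen with earlier results of these data known. All mitochondrial genes could be named, and of the nuclear lists up to 4 called genes per role and direction, or the 2 most abundant where 0 passed. Of the copies those with a mean of 1 CPM could be named, and of each marker list the 3 most abundant. The steps were checked on simulated data. Same-number replicates did not vary together (correlations of residuals -0.08, 0.28, 0.12 and -0.00), so numbers were not treated as pairs. The floor of 3 counts covers counting error only, and intervals of edgeR fold changes cover the spread between kidneys. Software comprised BLAST 2.17.0, edgeR 4.0.16, DESeq2 1.42.0 and limma 3.58.1 in R 4.3.3, and numpy 2.4.6, pandas 2.3.3 and matplotlib 3.10.9 in Python 3.11.15.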

Additional observations from a re-analysis of the deposited data

Results flagged for a closer look

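In 60 groups of 4 libraries, 1 library stood far from the other 3 in 6 cases, and chance alone gives about 1 in 20. All 6 were WT libraries, and the cause was not tested. WT 2 was low for mt-Nd2, with 2753 CPM against 5411 to 5847 CPM in the other WT libraries, and with copies added it had 2754 CPM. WT 2 was also low for mt-Cytb, with 7379 CPM against 12870 to 13908 CPM. WT 1 was high for mt-Atp6 with 3481 CPM, for mt-Nd3 with 2251 CPM and, with copies added, for mt-Co3 with 55070 CPM. The other WT libraries had 1454 to 1684 CPM of mt-Atp6 and 690 to 854 CPM of mt-Nd3, and with copies added 19542 to 24026 CPM of mt-Co3. Without WT 1 the log2 fold changes were 0.23 for mt-Atp6 and 0.27 for mt-Nd3 as deposited. Without WT 2 the count of mitochondrial mRNAs that fell was 8.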

How the results depend on the processing

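The count of mitochondrial mRNAs that fell, 7 with or without copies added, stayed between 6 and 10 under other scalings, filters, DESeq2, limma-voom, the age and number run terms and without the 2.5 month pair. It was 3 with the term for Y-linked reads, 0 without both WT 4 and cKO 4, and 2 to 8 without single libraries, in each case for both countings where both were run. With the replicate block it was 6, and the block changed neither ratio (-0.14 and 1.28). Of all genes, 16.7% were called in the main fit, 22.9% with DESeq2 and 21.5% with the age term. The share was 6.80% with the term for Y-linked reads and 4.10% without WT 4 and cKO 4. The 3 genes of mitochondrial machinery that fell became 9 with DESeq2 or the age term, 1 with upper quartile scaling, library size alone, no count filter or without the 2.5 month pair, 0 with the term for Y-linked reads or without WT 4 and cKO 4 (3 at an unadjusted p under 0.05 in both), and 1 to 6 without single libraries. The 1 nuclear copy became 4 with DESeq2, the age term or without the 2.5 month pair, 2 with the replicate block, 0 with library size alone or without WT 4 and cKO 4 (4 and 2 at an unadjusted p under 0.05), and 0 to 3 without single libraries. The share of counts differed by -4.35 to -2.78 percentage points without single libraries, the rRNA ratio by 0.90 to 1.53, and the light-strand ratio by -0.30 to 0.045 (-0.51 to -0.10 with copies added). The light-strand ratio turned to 0.39, and with copies added to 0.35, within libraries without Y-linked reads. Scaling by library size alone gave a median of 0.15 over all genes and 550 calls lower and 1866 higher, against 987 and 1323, and it set mt-Atp6 to 0.0048. Of 660 fold changes of single mitochondrial genes under an alternative, 535 stayed on their side, 86 lost and 10 gained a call and 29 changed sign. mt-Rnr1 turned to -0.27 and mt-Rnr2 to -0.20 with the term for Y-linked reads, to -0.19 and -0.062 without WT 4 and cKO 4, and to -0.50 and -0.47 within libraries without Y-linked reads, and mt-Rnr1 to -0.032 within those with them and to -0.0090 without the 2.5 month pair (-0.0091 with copies added). Scaled to heavy-strand mRNA, the values were 0.13 for mt-Nd1, 0.042 for mt-Co1, 0.37 for mt-Co2, 0.84 for mt-Atp6, 0.40 for mt-Co3 and 0.73 for mt-Nd3, and with copies added 0.17 for mt-Co2, 0.26 for mt-Atp6, 0.27 for mt-Co3 and 0.41 for mt-Nd3. Without single libraries mt-Atp6 ranged from -0.55 to 0.23 (above 0 without WT 1 and, at 0.05, without cKO 4) and mt-Nd3 from -0.46 to 0.27 (above 0 without WT 1), and within libraries with Y-linked reads they had 0.16 and 0.35. The cause was not tested. A tRNA to mRNA ratio was planned and could not be computed, since all tRNA counts were 0. Low counts limit mt-Nd6, with 60 to 375 counts per library.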
